A study of Homo sapiens with 3 samples.

Results

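The translation initiation factors were examined as a gene family in ribosome profiling (Ribo-seq) of HEK293T cells, which sequences the mRNA fragments that ribosomes protect from nuclease. Members were the genes whose symbol begins with EIF and a digit from 1 to 6, without the eIF2α kinases (EIF2AK), the eIF4E-binding proteins (EIF4EBP), pseudogenes, hyphenated names and 1 sex-linked copy. This left 48 of the 63241 genes in the table, of 143 names with that beginning. They comprised 4 genes of eIF2, 5 of eIF2B, 14 of eIF3, 13 of eIF4 and 12 factors that act as single chains, and 47 of them passed the filter on low counts. EIF4E1B did not, with 3 to 11 counts in a library.

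HEK293T, a human embryonic kidney line, makes the SV40 large T antigen, to which p53 binds. Cells expressed wild-type (WT), G245S or R273H p53, the mutants being hotspot substitutions in the DNA-binding domain, and all groups received cycloheximide for 2 min before harvest. The study's methods describe lentiviral stable lines, whereas the sample labels name stable lines in one field and transient expression in another, and the treatment field of both mutants names the WT construct, so groups follow the sample titles. Each group was 1 deposited sample with 3 dish columns, pooled at reverse transcription, so a difference between groups and a difference between pools cannot be told apart, and p-values measure the spread between dishes. The 9 libraries held 18.7 to 24.6 M counts. MDM2, a p53 target, fell from 859 CPM (counts scaled by TMM to a common library total) in WT to 76.7 in G245S and 76.6 in R273H, and CDKN1A, another target, from 61.0 to 16.1 and 13.8 CPM. Of the markers, KRT18 (109 to 115 CPM), CDH2 (268 to 291 CPM) and PAX2 (5.42 to 6.91 CPM) were present, and PTPRC, CD3E, PECAM1, CDH5 and ALB had group means under 0.1 CPM. KRT8 (33.8 CPM in WT, 43.4 CPM in R273H), CDH2 (268 and 291 CPM) and PAX2 (5.42 and 6.91 CPM) were called higher in R273H, and their part in the results was not tested. In such bulk counts, fewer cells using a gene and fewer footprints per cell cannot be told apart.

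Initiation begins when eIF2, a GTPase of α, β and γ subunits, brings the initiator tRNA to the small ribosomal subunit together with eIF1, eIF1A, eIF5 and the large scaffold eIF3. The eIF4 group recognises the mRNA cap (eIF4E), links it to eIF3 (eIF4G) and unwinds the leader (eIF4A with eIF4B or eIF4H). eIF2B recharges eIF2 with GTP and is the step blocked when eIF2α is phosphorylated, and eIF5B joins the ribosomal subunits. Several of these factors are themselves encoded by mRNAs that start with a terminal oligopyrimidine (TOP) tract, the element through which mTOR controls production of the translation machinery.

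Per kilobase of coding sequence, the levels of the factors in WT cells spanned a wide range. EIF5A, which relieves stalled peptide bond formation, had the highest density (2170 ± 29.3 CPM per kb, mean ± SD, n = 3 dishes), followed by EIF1, which guards start codon choice (1370 ± 45.6), and the helicase EIF4A1 (1300 ± 8.29). These densities are uncertain beyond their SDs, since EIF5A, EIF1 and EIF4A1 shared 77.1%, 41.6% and 100% of their 30-nt coding windows with other genes. Their pseudogene rows held 8.82%, 21% and 8.82% as many CPM. Among the tested members EIF4E3 was lowest at 3.09 ± 0.505 CPM per kb. Densities and coding length were weakly related across the 47 tested genes (Spearman's rho -0.31 in WT, a description only, since all genes share the same libraries).

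Within complexes, the subunits did not have equal densities. Among the eIF2 subunits, EIF2S3 (γ) had 236 ± 10.4, EIF2S1 (α) 225 ± 6.75 and EIF2S2 (β) 187 ± 6.50 CPM per kb in WT, and the dishes of EIF2S3 and EIF2S1 overlapped. The place of EIF2S2 in that order is uncertain, since it shared 79.8% of its 30-nt coding windows with other genes. Its 7 pseudogene rows held 70.4% as many CPM as EIF2S2 itself. The place of EIF2S3 is uncertain too, since it shared 62.2% of its windows with its copy EIF2S3B. Summed, EIF2S3 and EIF2S3B held 280 ± 11.8 CPM per kb in WT. The eIF2B subunits were lower and fell in order from EIF2B1 (135 ± 1.04) through EIF2B2 (97.2 ± 2.38), EIF2B3 (80.3 ± 1.65) and EIF2B4 (68.4 ± 3.20) to the catalytic EIF2B5 (30.7 ± 0.462), with no overlap of dishes between neighbours. In eIF3 the densities ran from EIF3K (615 ± 6.10) and EIF3I (516 ± 6.83) down to EIF3J, EIF3L and EIF3A (150 ± 7.94, 149 ± 3.79 and 145 ± 1.87), which overlapped in their dishes. The copy EIF3CL lay below them at 112 ± 2.00, but it shared 99.3% of its windows with EIF3C. Summed, EIF3C and EIF3CL held 373 ± 4.03 CPM per kb in WT. EIF4A1 exceeded the scaffold EIF4G1 by 4.76 ± 0.0435-fold and the cap-binding EIF4E by 5.63 ± 0.101-fold per kb in WT. EIF4G1 and EIF4E were close to each other at a ratio of 1.18 ± 0.0195. These ratios are uncertain beyond their SDs, since EIF4E shared 88.4% and EIF4A1 100% of its windows with other genes. The 5 pseudogene rows of EIF4E held 18.2% as many CPM as EIF4E itself, and the 13 of EIF4A1 held 8.82% as many as EIF4A1.

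**Figure D1:**
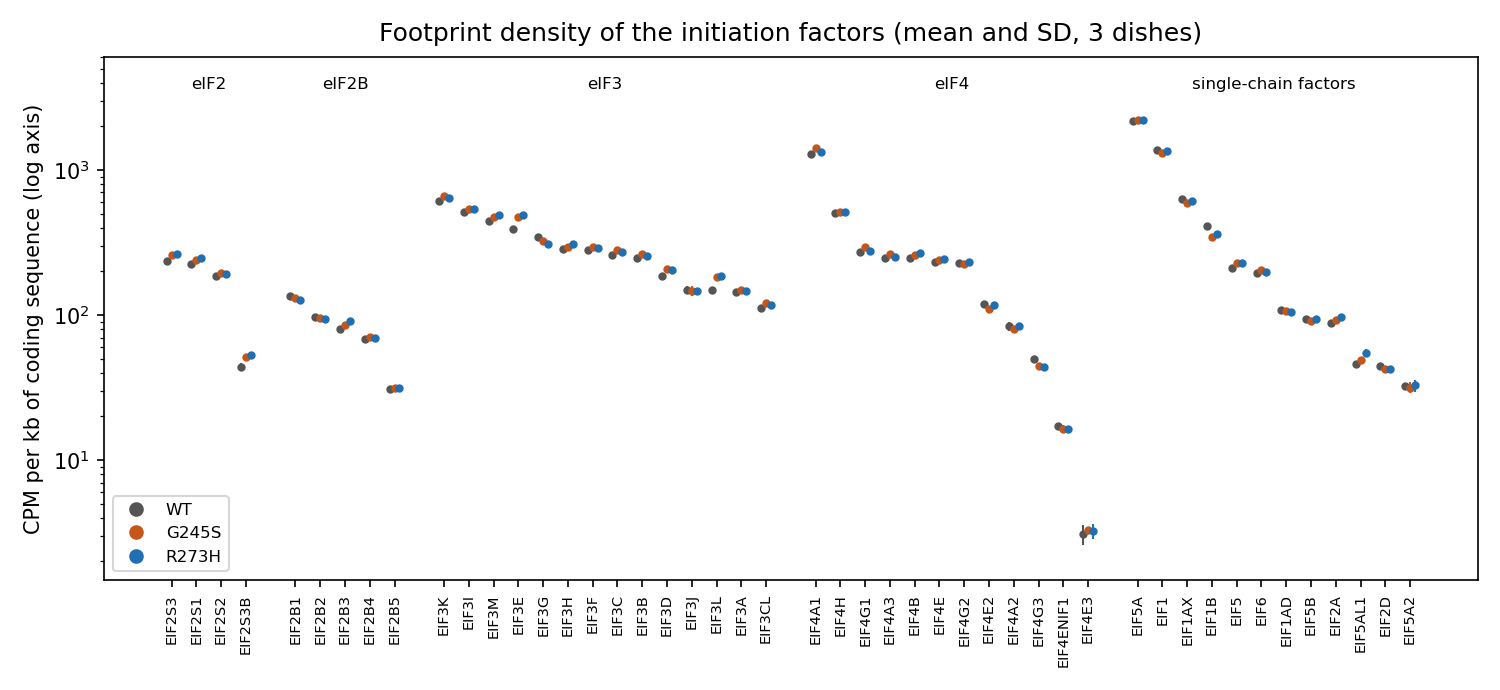
Footprint density of the 47 tested initiation factors in CPM per kilobase of coding sequence on a log axis, ordered by the WT level within each complex, with points and bars for the mean and SD of 3 dishes per group. EIF5A, EIF1 and EIF4A1 lie above 1000 CPM per kb, and the differences between genes are much wider than those between the WT, G245S and R273H points of one gene.

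The 48 genes together held 1.53% ± 0.0226 of the WT library, 1.60% ± 0.00956 of the G245S library and 1.59% ± 0.0109 of the R273H library. The eIF3 sum accounted for most of that difference, at 5720, 5700 and 5860 CPM in the WT dishes against 6210, 6180 and 6180 CPM in G245S and 6110, 6130 and 6200 CPM in R273H. The eIF2 sum was 771, 788 and 828 CPM in WT, 861, 846 and 877 CPM in G245S and 863, 861 and 887 CPM in R273H. The eIF4 sum was 5310, 5250 and 5340 CPM in WT, 5570, 5480 and 5510 CPM in G245S and 5390, 5360 and 5410 CPM in R273H. In these 3 sums the WT dishes lay below all mutant dishes. The eIF2B sums of WT (500 to 517 CPM) overlapped with those of G245S (514 to 521 CPM) and R273H (511 to 526 CPM). The sums of the single-chain factors overlapped between all groups (2920 to 3040 CPM).

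Each mutant was then compared with WT gene by gene, to ask which factors differed in ribosome occupancy. With edgeR's quasi-likelihood test and Benjamini-Hochberg adjustment over 19820 genes (threshold 0.05), 21 of 47 members (44.7%) differed between G245S and WT, 16 of them up and 5 down. Over all genes tested 24.7% were called, 12.6% higher and 12.1% lower. In R273H against WT 18 members (38.3%) were called, 15 higher and 3 lower, beside 28.8% of all genes, 14.2% higher and 14.6% lower. The members are abundant, and calls were more frequent among abundant genes: of 3480 genes with mean counts between 1310 and 13200, which spans the 10th to 90th percentile of the members, 48.2% were called in G245S and 54.5% in R273H. Against those genes the total share of members called was not high. By direction, the members had more higher calls than lower ones, while the genes of like counts were called higher in 28.4% and lower in 19.8% of cases for G245S, and in 29.6% and 24.9% for R273H.

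The changes were small. The median log2 fold change over the members was 0.05 in G245S and 0.03 in R273H, beside -0.0007 and -0.0024 over all genes. Over the 3480 genes of like counts it was 0.018 and 0.009, and over 79 cytosolic ribosomal proteins 0.07 and 0.03. Without WT dish 3 the R273H median over the members was 0.05. In edgeR's test against a minimum change of 1.2-fold, 0 members were called in either comparison, and before adjustment 1 member for G245S and 2 for R273H had a p under 0.05. The standard error of a log2 fold change was 0.02 to 0.06 for the 44 members with mean counts of at least 1000. EIF2B3, EIF2S1, EIF2S3, EIF2S3B, EIF3C, EIF3CL, EIF3D, EIF3E, EIF3L, EIF3M and EIF5 (11 members) rose in both mutants, and 3 fell in both (EIF1B, EIF3G and EIF4G3). The 11 include EIF2S3 with its copy EIF2S3B and EIF3C with its copy EIF3CL. The comparisons share the WT dishes. A further 5 were called higher in G245S alone (EIF3B, EIF3K, EIF4A1, EIF4A3 and EIF4G1), 2 lower in G245S alone (EIF1AX and EIF4E2) and 4 higher in R273H alone (EIF2A, EIF3H, EIF4B and EIF5AL1). No gene was called in opposite directions, and 22 were called in neither comparison.

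**Figure D2:**
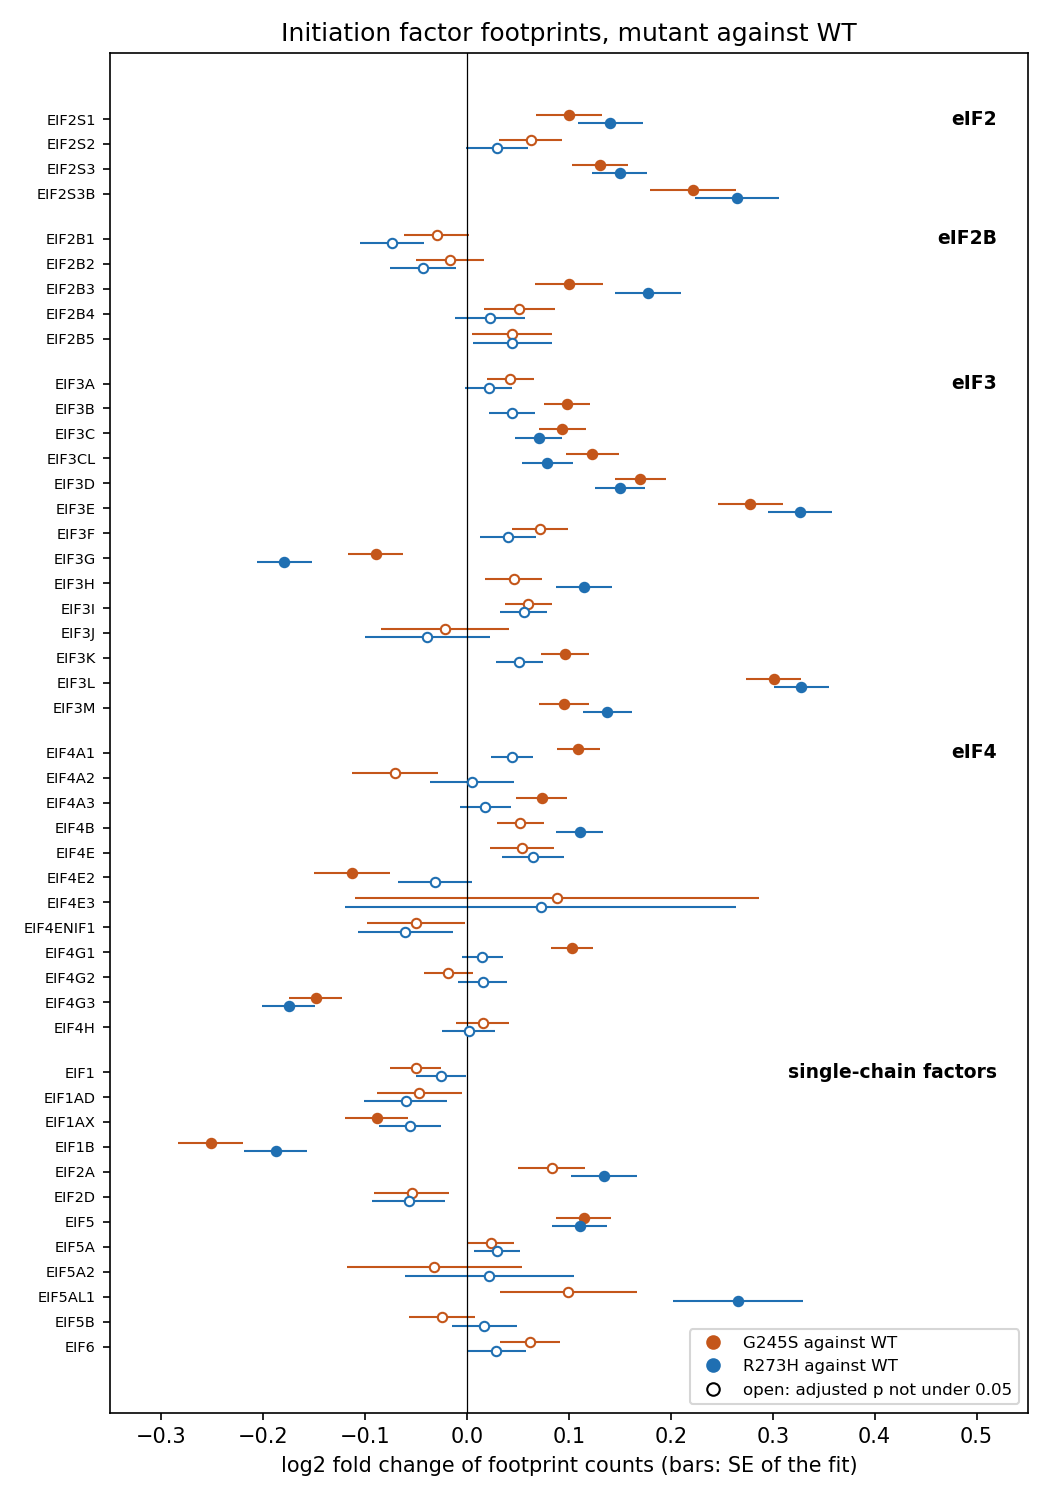
Log2 fold change of footprint counts for the 47 tested members in G245S (orange) and R273H (blue) against WT, grouped by complex, with bars for the SE of the fit and filled points for an adjusted p under 0.05. EIF3L and EIF3E lie furthest to the right at 0.28 to 0.33, and EIF1B, EIF4G3 and EIF3G lie furthest to the left.

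Sequences at the RefSeq start sites (GRCh38.p14) are shown because TOP tracts mark part of the family. A start was counted as pyrimidine-run where the first transcribed base was a C followed by at least 4 bases that were each C or T, on the transcribed strand only. This rule was chosen after the sequences and changes had been seen. RefSeq promoters matched 41 of 48 members (EIF2S2, EIF3A, EIF3CL, EIF3E, EIF3G, EIF3H and EIF3L were not matched), and 10 of the 41 (24.4%) had such a start, beside 5.14% of the 27305 genes in the promoter table and 47 of 63 matched ribosomal protein genes. The 10 starts are printed from 10 bases before to 20 bases from the start, with the run of C and T in capitals.
EIF2S3: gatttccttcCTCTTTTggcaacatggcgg
EIF2S3B: gactttcttcCTCTTTTggcaacatggcgg
EIF3D: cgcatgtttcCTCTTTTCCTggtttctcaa
EIF3F: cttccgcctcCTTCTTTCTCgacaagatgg
EIF3K: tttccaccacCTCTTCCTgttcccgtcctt
EIF3M: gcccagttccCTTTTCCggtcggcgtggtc
EIF4A2: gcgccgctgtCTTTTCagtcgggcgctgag
EIF4B: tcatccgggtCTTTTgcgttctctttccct
EIF2A: cgagcggtttCTCTTTCCgggacaacatgg
EIF2D: ccagccgggcCCTTTTCgcggccgggcccc

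These windows lie at chrX:24054946-24054975 (EIF2S3, plus strand), chr12:10505880-10505909 (EIF2S3B, plus), chr22:36529147-36529176 (EIF3D, minus), chr11:7987327-7987356 (EIF3F, plus), chr19:38619178-38619207 (EIF3K, plus), chr11:32583821-32583850 (EIF3M, plus), chr3:186783567-186783596 (EIF4A2, plus), chr12:53006446-53006475 (EIF4B, plus), chr3:150546777-150546806 (EIF2A, plus) and chr1:206612446-206612475 (EIF2D, minus). The runs were 5 to 10 bases long, and EIF2S3 and its copy EIF2S3B held the same run. Of the 10 genes, 5 were called higher in G245S and 6 in R273H, with median log2 fold changes of 0.09 and 0.12. EIF2S3 and EIF2S3B are both among these calls in each mutant, although EIF2S3 shared 62.2% of its coding windows with EIF2S3B. Of the 30 tested members with a RefSeq start of another kind, 8 and 5 were called higher and 4 and 2 lower, with medians of 0.03 and 0.02. EIF4A2, EIF2D and EIF3F carried the run and were called in neither comparison, EIF3F with 0.07 ± 0.03 (adjusted p = 0.0612) and 0.04 ± 0.03 (adjusted p = 0.296). When the run could begin within 5 bases on either side of the start, 18 of 41 members had it (25.2% of all genes). Of these 18, 8 were called higher in each mutant, and 1 was lower in G245S and 0 in R273H. Of the other 22 tested, 5 and 3 were called higher and 3 and 2 lower. The medians were 0.08 and 0.05 beside 0.05 and 0.03 for those 22. The separation of the medians thus depended on how strictly the start was defined. Higher calls were more frequent among members with the run under both rules, a difference that was not tested.

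In eIF2, 3 of 4 genes rose in both mutants. EIF2S3, which encodes the γ subunit that binds GTP and the initiator tRNA (chrX:24054946-24078810), had 321, 331 and 350 CPM in the WT dishes, 365, 366 and 366 CPM in G245S and 368, 369 and 375 CPM in R273H. The WT dishes lay below all mutant dishes. G245S gave a log2 change of 0.13 ± 0.03 (SE, adjusted p = 6.7e-04) and R273H one of 0.15 ± 0.03 (adjusted p = 1.0e-04). EIF2S3B, the autosomal copy (chr12:10505602-10523135), had 63.3, 58.2 and 65.5 CPM in WT, 73.3, 70.6 and 74.3 CPM in G245S and 75.8, 74.8 and 74.2 CPM in R273H. The groups again did not overlap with WT, and its changes were 0.22 ± 0.04 (adjusted p = 2.4e-04) and 0.26 ± 0.04 (adjusted p = 1.4e-05).

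EIF2S1, the α subunit whose phosphorylation arrests initiation, rose by 0.10 ± 0.03 with G245S (adjusted p = 0.0233) and by 0.14 ± 0.03 with R273H (adjusted p = 0.00131), and 1 G245S dish (217 CPM) lay within the WT range of 207 to 219 CPM. EIF2S2, the β subunit, was not called, with 0.06 ± 0.03 (adjusted p = 0.143) and 0.03 ± 0.03 (adjusted p = 0.512). In eIF2B, only the γ subunit EIF2B3 was called of the 5 tested. It had 106, 110 and 110 CPM in WT, 117, 115 and 118 CPM in G245S and 125, 126 and 118 CPM in R273H, so that no WT dish reached a mutant one. Its changes were 0.10 ± 0.03 (adjusted p = 0.0279) and 0.18 ± 0.03 (adjusted p = 1.3e-04). For the other subunits, G245S and R273H gave -0.03 and -0.07 for EIF2B1, -0.02 and -0.04 for EIF2B2, 0.05 and 0.02 for EIF2B4, and 0.04 and 0.04 for EIF2B5.

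The eIF3 complex held the largest rises. It consists of an octamer of subunits a, c, e, f, h, k, l and m, a module of b, g and i, the cap-binding d and the loosely held j. EIF3L, an octamer subunit (chr22:37848868-37889407), had 244.9, 254.6 and 257.1 CPM in WT, 303.7, 315.9 and 312.2 CPM in G245S and 310.9, 323.3 and 315.3 CPM in R273H. Its footprints were 23.2% higher in G245S (log2 0.30 ± 0.03, adjusted p = 1.3e-09) and 25.5% higher in R273H (0.33 ± 0.03, adjusted p = 1.6e-10), with a wide gap between the WT and mutant dishes. EIF3E (chr8:108162787-108443496), another octamer subunit, had 507, 507 and 556 CPM in WT, 619, 631 and 654 CPM in G245S and 646, 650 and 672 CPM in R273H. It was 21.3% higher in G245S (0.28 ± 0.03, adjusted p = 1.2e-06) and 25.4% higher in R273H (0.33 ± 0.03, adjusted p = 9.8e-08), and the highest WT dish lay below every mutant dish.

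EIF3D, the subunit able to bind the cap of selected mRNAs (chr22:36510855-36529184), had 306, 305 and 306 CPM in WT, 352, 337 and 343 CPM in G245S and 335, 345 and 338 CPM in R273H. It rose by 0.17 ± 0.03 (adjusted p = 8.5e-06) and 0.15 ± 0.03 (adjusted p = 3.5e-05). EIF3M rose by 0.10 ± 0.02 (adjusted p = 0.00465) and 0.14 ± 0.02 (adjusted p = 7.5e-05), EIF3C by 0.09 ± 0.02 (adjusted p = 0.00332) and 0.07 ± 0.02 (adjusted p = 0.0221), and EIF3CL by 0.12 ± 0.03 (adjusted p = 6.1e-04) and 0.08 ± 0.03 (adjusted p = 0.0192). EIF3B and EIF3K were called in G245S at 0.10 ± 0.02 (adjusted p = 0.00188) and 0.10 ± 0.02 (adjusted p = 0.00267), with 0.04 (adjusted p = 0.149) and 0.05 (adjusted p = 0.0953) in R273H. EIF3H was called in R273H at 0.11 ± 0.03 (adjusted p = 0.00209), with 0.05 (adjusted p = 0.248) in G245S. EIF3A, the largest subunit, was called in neither, at 0.04 ± 0.02 (adjusted p = 0.198) and 0.02 ± 0.02 (adjusted p = 0.541).

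EIF3G, an RNA-binding subunit (chr19:10115014-10119918), went the other way. It had 330, 331 and 338 CPM in WT, 322, 318 and 300 CPM in G245S and 291, 295 and 297 CPM in R273H, without overlap with WT. On the log2 scale it fell by 0.09 ± 0.03 with G245S (adjusted p = 0.0148) and by 0.18 ± 0.03 with R273H (adjusted p = 7.8e-06). Of the 9 octamer genes, the copy EIF3CL included, 6 rose and 3 were not called in each comparison, while in the b, g and i module 1 of 3 rose and 1 fell in G245S and 1 fell in R273H. Over all genes 12.6% were called higher in G245S and 14.2% in R273H, and over the genes of like counts 28.4% and 29.6%. A difference between the modules was not tested, and one of them has only 3 genes. The density of EIF3L relative to EIF3A moved from 1.03 ± 0.0124 in WT to 1.23 ± 0.0323 in G245S and 1.27 ± 0.0314 in R273H, and that of EIF3E relative to EIF3A from 2.70 ± 0.127 to 3.18 ± 0.0461 and 3.34 ± 0.0157.

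**Figure D3:**
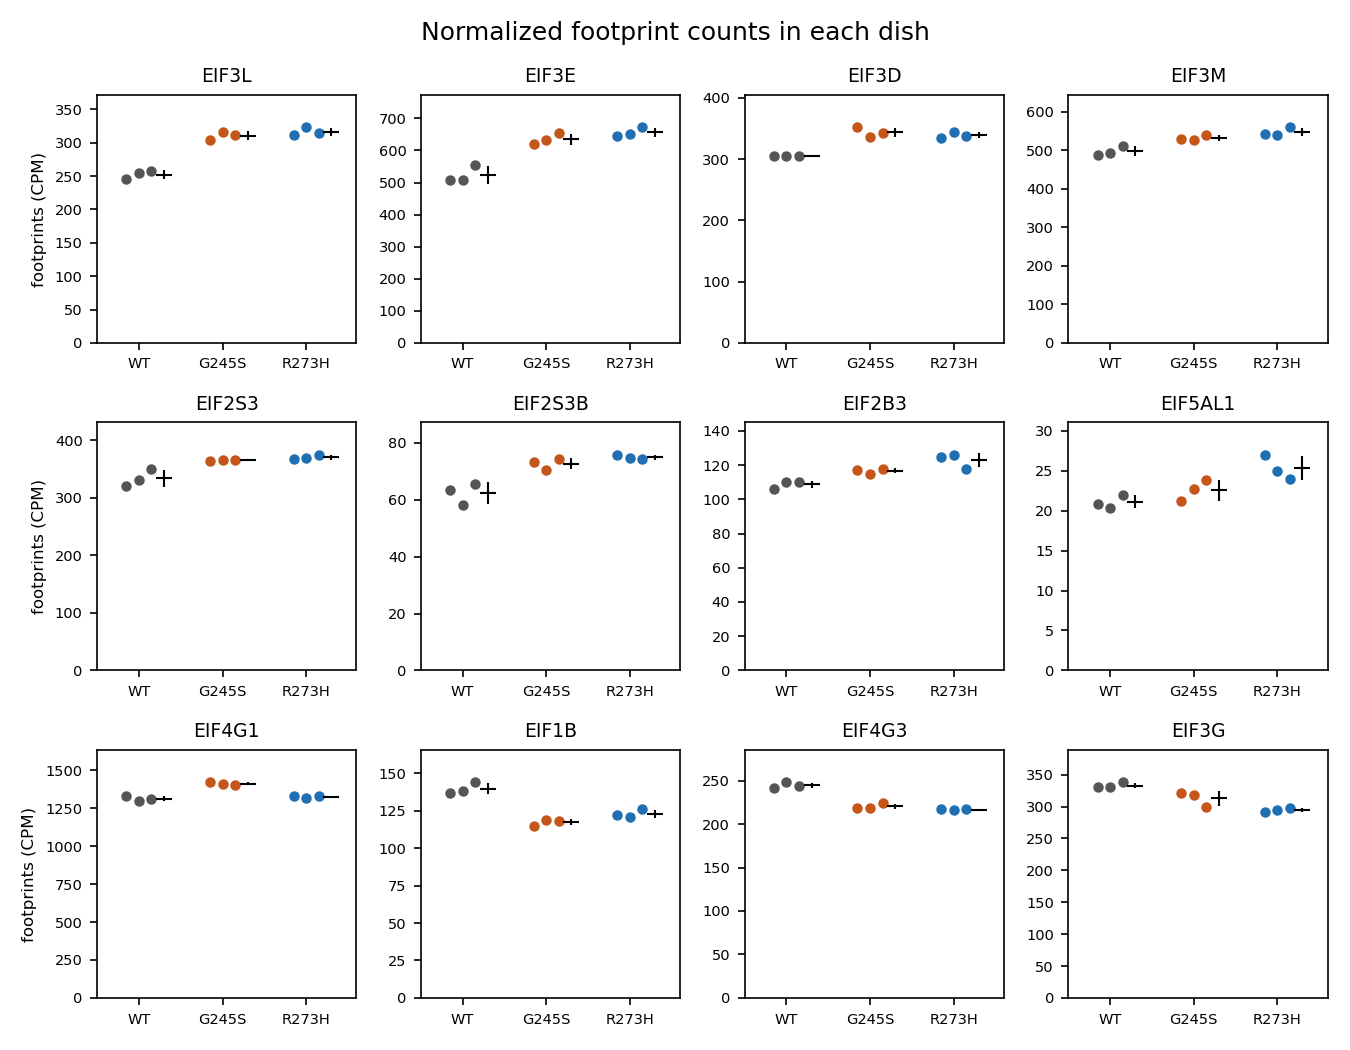
Footprints in CPM in each of the 3 dishes of WT (grey), G245S (orange) and R273H (blue) for 12 members, with a cross for the mean and SD and axes from 0. The WT dishes lie below the mutant dishes for EIF3L, EIF3E, EIF3D, EIF3M, EIF2S3, EIF2S3B and EIF2B3 and above them for EIF1B, EIF4G3 and EIF3G.

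In eIF4, 3 genes rose and 2 fell in G245S, and 1 rose and 1 fell in R273H. EIF4A1, the main helicase, rose by 0.11 ± 0.02 in G245S (adjusted p = 2.4e-04), with 0.04 ± 0.02 in R273H (adjusted p = 0.115), whereas its paralog EIF4A2 had -0.07 ± 0.04 (adjusted p = 0.243) and 0.01 ± 0.04 (adjusted p = 0.946). EIF4A3, the helicase of the exon junction complex, rose by 0.07 ± 0.03 in G245S (adjusted p = 0.0328). EIF4B, which stimulates eIF4A, rose by 0.11 ± 0.02 in R273H (adjusted p = 5.1e-04), with 0.05 ± 0.02 in G245S (adjusted p = 0.101). EIF4E was called in neither comparison, at 0.05 ± 0.03 and 0.07 ± 0.03, and EIF4E2, the cap-binding homolog that represses selected mRNAs, fell by 0.11 ± 0.04 in G245S (adjusted p = 0.0267).

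The scaffolds differed among themselves. EIF4G3 (chr1:20806292-21177285) had 242, 248 and 244 CPM in WT, 219, 219 and 224 CPM in G245S and 217, 216 and 217 CPM in R273H. It fell by 0.15 ± 0.03 (adjusted p = 8.3e-05) and 0.18 ± 0.03 (adjusted p = 5.9e-06), with all mutant dishes below all WT dishes. EIF4G2, a scaffold that lacks the eIF4E-binding part, had -0.02 ± 0.02 (adjusted p = 0.638) and 0.02 ± 0.02 (adjusted p = 0.684). EIF4G1 exceeded EIF4G3 per kb by 5.51 ± 0.130-fold in WT, 6.56 ± 0.127-fold in G245S and 6.28 ± 0.0106-fold in R273H.

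Among the single-chain factors, EIF1B, a close paralog of EIF1 (chr3:40309707-40312424), fell most. It had 137, 138 and 144 CPM in WT, 115, 119 and 118 CPM in G245S and 122, 121 and 126 CPM in R273H, with no overlap with WT. On the log2 scale it fell by 0.25 ± 0.03 with G245S (adjusted p = 6.8e-07) and by 0.19 ± 0.03 with R273H (adjusted p = 3.2e-05), while EIF1 had -0.05 ± 0.02 (adjusted p = 0.144) and -0.03 ± 0.02 (adjusted p = 0.484). EIF1AX, a scanning factor, fell by 0.09 ± 0.03 in G245S (adjusted p = 0.0346), with -0.06 ± 0.03 in R273H (adjusted p = 0.176). EIF5, the GTPase-activating protein of eIF2, rose by 0.11 ± 0.03 in both (adjusted p = 0.00239 and 0.00241). EIF2A, an alternative initiator tRNA carrier, rose by 0.13 ± 0.03 in R273H (adjusted p = 0.00211).

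EIF5AL1, a copy of EIF5A (chr10:79512533-79516440), had 20.9, 20.4 and 22.0 CPM in WT, 21.2, 22.7 and 23.8 CPM in G245S and 27.0, 25.0 and 24.0 CPM in R273H. It was called in R273H (0.27 ± 0.06, adjusted p = 0.00221) and overlapped with WT in G245S (0.10 ± 0.07, adjusted p = 0.306). EIF5A itself was not called, at 0.02 ± 0.02 and 0.03 ± 0.02, nor was EIF5B at -0.02 ± 0.03 and 0.02 ± 0.03, nor EIF6, which keeps the large ribosomal subunit from joining early, at 0.06 ± 0.03 and 0.03 ± 0.03.

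Some calls rested on single dishes. In G245S, leaving out 1 dish ended the call of EIF2S1 (G245S dish 3 or WT dish 1 or 2), EIF2B3 (G245S dish 1 or 3 or WT dish 1), EIF3G (G245S or WT dish 3), EIF4A3 (G245S dish 1 or 2 or WT dish 2), EIF4E2 (G245S or WT dish 1 or 2) and EIF1AX (any G245S dish or WT dish 2 or 3). In R273H the same held for EIF3C (R273H dish 1 or 3 or WT dish 1 or 2) and EIF3CL (R273H dish 1 or 3 or WT dish 2). EIF3L, EIF3E, EIF3D, EIF2S3, EIF2S3B, EIF4G3 and EIF1B were called in both comparisons in all 9 fits without 1 dish.

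Compared directly, the mutants differed in 1 member of 47 (2.13%), beside 2.59% of all genes (1.86% higher and 0.732% lower in G245S). EIF4G1 (chr3:184314495-184335358) had 1330, 1300 and 1310 CPM in WT, 1420, 1410 and 1400 CPM in G245S and 1330, 1320 and 1330 CPM in R273H, so the G245S dishes stood above those of both other groups. It was 0.09 ± 0.02 higher in G245S than in R273H (adjusted p = 0.0158), 0.10 ± 0.02 higher in G245S than in WT (adjusted p = 3.9e-04) and 0.02 ± 0.02 from WT in R273H (adjusted p = 0.634). The difference between the mutants was no longer called without G245S dish 1 or 2 or without any 1 of the R273H dishes. At an unadjusted p under 0.05, 10 members differed between the mutants, and DESeq2 called 3. Shares over all genes were not taken for these counts, so they have no background beside them. For the other members called in 1 mutant alone, the difference between the mutants was not called, with EIF4A1 at 0.07 ± 0.02 (adjusted p = 0.0975), EIF3B at 0.05 ± 0.02 (adjusted p = 0.227), EIF4B at -0.06 ± 0.02 (adjusted p = 0.19) and EIF5AL1 at -0.17 ± 0.06 (adjusted p = 0.17). EIF4A1 was called between the mutants by DESeq2 (adjusted p = 0.0121), with the coding length and GC trend removed (0.0385) and without G245S dish 3 (0.0394) or WT dish 3 (0.045). In the edgeR fit with dish number as a replicate block, EIF4A1 (adjusted p = 0.00902), EIF4B (adjusted p = 0.0378) and EIF3H were called. In this contrast the fixed subunits EIF2S1, EIF2S2, EIF2S3, EIF3A, EIF3C, EIF4E, EIF4G2, EIF4G3, EIF1, EIF1AX, EIF5, EIF5A, EIF5B and EIF6 had log2 differences within 0.05 of 0, EIF4A2 had -0.08 ± 0.04, and the eIF2B subunits ranged from -0.08 to 0.04.

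Many members have near-identical copies, and the counts were shared among them by an estimate. EIF3C and EIF3CL had 99.4% of 30-nt coding windows in common, EIF5A and EIF5AL1 77.1%, and EIF2S3 and EIF2S3B 62.2%, so values of single copies are uncertain. The counts of called members hold both copies of each pair. With the copies summed, 19 of 44 members were called in G245S (14 higher, 5 lower) and 15 in R273H (12 higher, 3 lower). The share of all genes called in that fit was not taken. Summed over the copies, EIF3C with EIF3CL rose by 0.10 ± 0.02 with G245S (adjusted p = 9.3e-04) and by 0.07 ± 0.02 with R273H (adjusted p = 0.0137), and EIF2S3 with EIF2S3B by 0.15 ± 0.03 (adjusted p = 1.4e-04) and 0.17 ± 0.03 (adjusted p = 1.6e-05). EIF5A with EIF5AL1 was not called, at 0.03 ± 0.02 (adjusted p = 0.431) and 0.04 ± 0.02 (adjusted p = 0.255), so the rise of EIF5AL1 in R273H concerned 1.97% to 2.57% of the pair's counts. Other genes, pseudogenes among them, shared 45.2% of the EIF3L windows and 30.2% of the EIF3E windows, and rows named as their pseudogenes held 0.525% and 0.683% of the parent's CPM. The genes that shared most with them, an overlapping lncRNA for EIF3L and an unnamed pseudogene for EIF3E, held 0.339% and 0.249% of the parent's CPM. All windows of EIF4A1 occurred in other transcripts, among them the readthrough gene SENP3-EIF4A1. EIF4B shared 86.1% of its windows and EIF1AX 85.9%. Their pseudogene rows held 11.2% and 27.6% as many CPM as the parent, so the calls of EIF4B and EIF1AX are uncertain in their assignment to the gene. The EIF4B pseudogene rows held 45.1, 49.3 and 46.5 CPM in WT and 57.2, 56.5 and 55.9 CPM in R273H. Of the 20 tested members with no shared window, 9 were called in G245S (6 higher, 3 lower) and 8 in R273H (5 higher, 3 lower). Among them were EIF2S1, EIF2B3, EIF3D, EIF3G, EIF4G3 and EIF1B. The shares were 45% and 40%, beside 24.7% and 28.8% of all genes and 48.2% and 54.5% of the genes of like counts. Their median log2 fold changes were 0.04 and 0.02, with 11 and 12 of the 20 above 0.

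The comparison was repeated after removing any trend of the fold changes with coding length and GC content over all genes. The members then had 30 calls in G245S (27 higher, 3 lower) and 26 in R273H, and the medians rose to 0.08 and 0.06. The share of all genes called in that fit was not taken, so these counts have no background beside them. Of the original calls, 19 of 21 and 18 of 18 were shared with that fit. EIF1AX and EIF4E2 were the calls lost in G245S, and EIF1B, a short gene, remained lower with a smaller change.

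**Figure D4:**
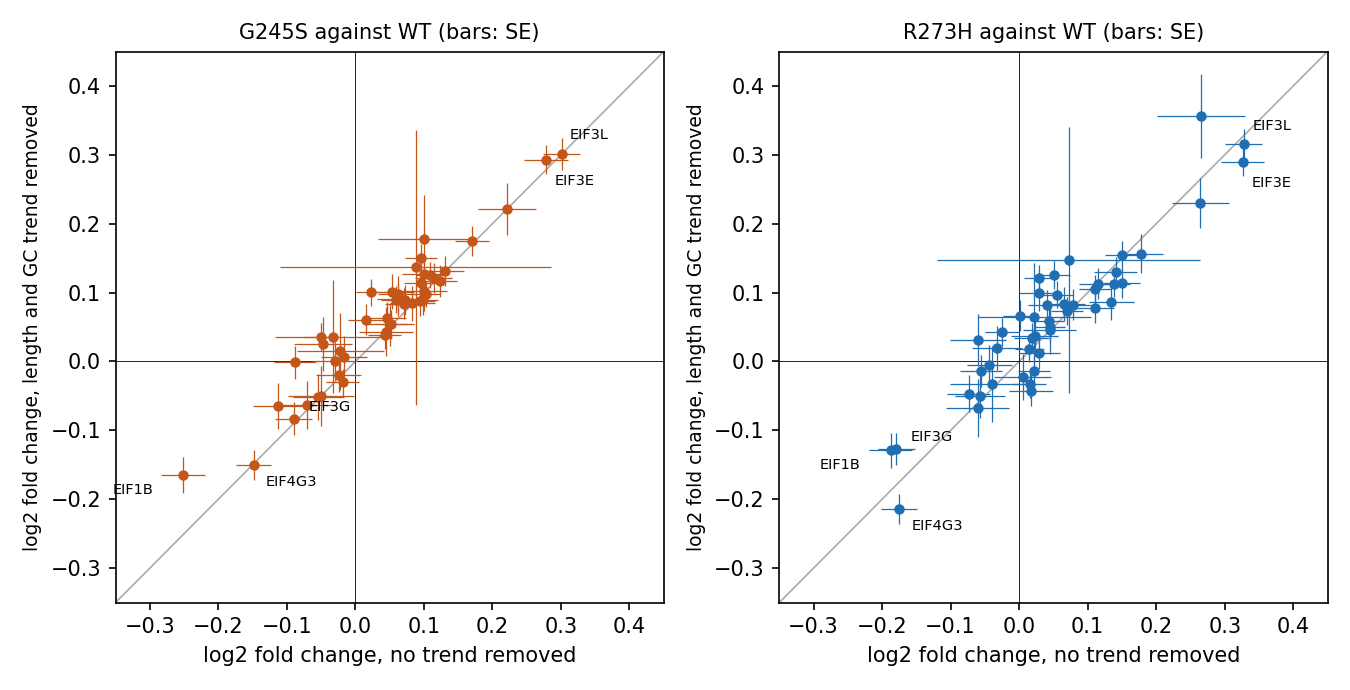
Log2 fold changes of the 47 tested members against WT without (horizontal) and with (vertical) removal of the coding length and GC trend, G245S on the left and R273H on the right, with SE bars and a grey line of equality. EIF3L and EIF3E stay at 0.28 to 0.33 on both axes, and most points near 0 lie above the line.

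Other genes of the pathway were described from lists by role. For the counts in these lists, 24.7% of all genes were called in G245S (12.6% higher, 12.1% lower) and 28.8% in R273H (14.2% higher, 14.6% lower). Of the 3480 genes with counts like the members', 48.2% were called in G245S (28.4% higher, 19.8% lower) and 54.5% in R273H (29.6% higher, 24.9% lower). The lists were not matched to either background by count. Of 8 repressors, 2 rose and 4 fell in both mutants. PDCD4, which sequesters eIF4A, fell from 301 CPM to 240 with G245S and 248 with R273H (by 0.33 and 0.28 on the log2 scale, adjusted p = 3.9e-10 and 5.5e-09). EIF4EBP2, an inhibitor of eIF4E, fell by 0.18 and 0.16, and PAIP2 and PAIP2B, which inhibit the poly(A)-binding protein, fell by 0.11 and 0.21 in both. EIF4EBP1, another eIF4E inhibitor, rose by 0.27 (adjusted p = 2.6e-06) and 0.18 (adjusted p = 5.3e-04), and BZW2, an eIF5 mimic, by 0.13 and 0.11.

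Of 11 assisting factors, 4 rose in both mutants and 1 fell in G245S. CDC123, the assembly chaperone of eIF2, rose by 0.17 (adjusted p = 2.2e-05) and 0.20 (adjusted p = 9.8e-07), and the recycling factor ABCE1 by 0.18 and 0.20. DHX29, a helicase for structured leaders, rose by 0.16 and 0.20, CTIF by 0.35 and 0.34, and PAIP1 fell by 0.10 in G245S. Of 10 kinases, phosphatase subunits and their regulators, MKNK1 alone was called, falling by 0.16 in G245S (adjusted p = 0.024), and the 10 genes ranged from -0.08 to 0.07 in R273H, with GCN1, an activator of the eIF2α kinase GCN2, at 0.05 (adjusted p = 0.125).

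Of 11 elongation and release factors, 4 rose and 1 fell in G245S and 3 rose in R273H. EEF1A2 rose by 0.20 and 0.21, ETF1 by 0.12 and 0.15, and EEF1A1 by 0.05 in R273H. EEF2, the translocase, rose by 0.10 in G245S, as did EEF1G by 0.16, and both were higher in G245S than in R273H by 0.12 (adjusted p = 0.0033) and 0.14 (adjusted p = 0.00196), while GSPT2 fell by 0.16 in G245S. Of 79 cytosolic ribosomal proteins, G245S had 40 up and 5 down, and R273H had 31 up and 7 down, which is 57.0% and 48.1% called in all. Of 4 initiation factors listed as TOP mRNAs from general knowledge (EIF3E, EIF3F, EIF3H and EIF4B), 1 rose in G245S and 3 in R273H. That list was not drawn from the start sequences, and EIF3E and EIF3H had no matched start.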

How the data were processed

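Ribosome footprints of HEK293T cells were counted by the authors. The labels and methods name Trim Galore, cutadapt, UMI-tools, STAR and GRCh38. The deposited table holds expected counts per gene, not scaled for depth or length. The counting tool, annotation, strand and treatment of multi-mapping reads are not given in the sources used here. Between 61.5% and 63.7% of nonzero values were not whole, and counts were rounded for testing.

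All 9 libraries (3 groups, 3 dishes each) entered one edgeR 4.0.16 fit in R 4.3.3 (TMM, filterByExpr, robust glmQLFit, two-sided glmQLFTest, group as the only term, 6 residual degrees of freedom), with Benjamini-Hochberg adjustment over 19820 genes and a threshold of 0.05. Alternatives were DESeq2 1.42.0, other scalings and filters, a minimum fold of 1.2, a coding length and GC trend, a dish block and leaving out each dish. Summing near-identical copies was added after the data were seen. Coding regions and coordinates are of GENCODE v44 (GRCh38), to which 62666 of 63241 identifiers matched. No matched RNA-seq was used, so ribosome occupancy per mRNA and mRNA level cannot be told apart.

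The fit was tested on simulated counts of G245S against WT over 19820 genes. It called 20, 30, 42 and 45 of 50 genes changed by 1.2-, 1.5-, 2- and 4-fold, with 8 false calls. The changed genes were drawn from all genes tested whatever their counts. These shares therefore do not give the recovery for the members, which are abundant. Members, lists and named genes were chosen with earlier results of these data known. Every member called in a comparison is named. Dish values are given for the 5 largest called changes per mutant, for calls between mutants and, chosen after their values were seen, for EIF2S3, EIF2B3, EIF3G and EIF4G3 (and EIF3M in a plot). A set of core subunits is given whether called or not.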

Additional observations from a re-analysis of the deposited data

Results flagged for a closer look

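EIF4G1, the main eIF4G scaffold, differed between the mutants in the change against WT. The log2 difference of G245S from R273H was 0.0882 ± 0.0205 (edgeR quasi-likelihood test, adjusted p = 0.0158), with the G245S dishes at 1400 to 1420 CPM and the R273H dishes at 1320 to 1330 CPM, higher in 3 of 3 dishes. It was called in 13 of 19 alternatives, with log2 differences of 0.08 to 0.10.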

How the results depend on the processing

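With a minimum fold change of 1.2, 0 members were called in each of the 3 contrasts (1, 2 and 0 at an unadjusted p under 0.05). Across the other alternatives the members called numbered 17 to 30 in G245S against WT and 15 to 26 in R273H against WT. No call turned its direction. Shares over all genes were not taken for these alternatives or for unadjusted p-values. Upper-quartile scaling gave 22 (19 higher, 3 lower) and 21. In G245S against R273H, 3 members were called with DESeq2, 2 with the coding length and GC trend removed, and 0 to 3 when 1 dish was left out (4 to 14 at an unadjusted p under 0.05).

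The median log2 fold change in G245S against WT was 0.0843 with the trend removed, 0.0664 with upper-quartile scaling and 0.0468 to 0.0685 with 1 dish left out. In R273H against WT it was 0.0639 with the trend removed, 0.0451 with upper-quartile scaling, 0.0454 without a filter and 0.0306 to 0.0496 with 1 dish left out, the highest in both without WT dish 3. In G245S against R273H it was 0.0002 with DESeq2 and with RLE scaling, -0.0002 at a mean count of at least 100, -0.0036 without a filter, 0 with upper-quartile scaling and -0.0037 to 0.0063 with 1 dish left out. The causes were not tested.

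The dish numbers were not taken as pairs. Deviations of same-numbered dishes correlated at 0.0421 to 0.229, over 0.1 in 4 of 9 pairs, and 17 of 18 comparisons placed a dish closest to its own number. With dish number as a replicate block, 26, 23 and 5 members were called. The 4 gained between the mutants were EIF4A1 (adjusted p = 0.00902), EIF4B (0.0378), EIF3G and EIF3H.

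EIF3C and EIF3CL lost their calls in R273H in several fits without 1 dish. Of the members called, EIF2S1, EIF2B3, EIF3G, EIF4A3, EIF1AX and EIF4E2 in G245S were each lost in at least 1 such fit. Low counts limit EIF4E3 and EIF4E1B.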
